A study of Mus musculus with 2 samples.

Results

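The platelet-derived growth factor (PDGF) genes form a set of 7 genes among the 32285 listed for cultured adipocyte precursors. They were chosen by name and not by level, though earlier results of these data were known. The set holds the receptors Pdgfra and Pdgfrb, the receptor-like gene Pdgfrl, and the ligands Pdgfa, Pdgfb, Pdgfc and Pdgfd. Each is described in white (WAT) and brown (BAT) precursors and in the clusters that the study named in each depot, together with the balance of Pdgfra to Pdgfrb.

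PDGF ligands are secreted dimers that bind receptor tyrosine kinases on the cell surface, and binding joins receptors into pairs that phosphorylate each other and feed the Ras, PI3-kinase and phospholipase C pathways. PDGF-A and PDGF-C act mainly through the alpha receptor, PDGF-D mainly through the beta receptor, and PDGF-B through both. PDGF-C and PDGF-D are secreted with a CUB domain that proteases must cut off before the factor can bind. In adipose tissue, the receptors mark the mesenchymal and perivascular cells from which adipocytes arise, and they drive proliferation and matrix production in those cells.

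The WAT group was cells of the stromal vascular fraction from subcutaneous white fat, and the BAT group was the same fraction from interscapular brown fat. Both came from untreated male and female C57/BL6J pups, with tissue of 4 animals pooled, and were grown in serum-containing medium to confluency over 4 days. The labels give the age as P0 and the study's methods as P1, and collagenase digestion lasted 35 min for WAT and 50 min for BAT. Each depot is 1 library of droplet 3' RNA sequencing, so no difference between depots has a replicate and no test was run. Sex, animal and culture cannot be told apart within a library, and depot cannot be told apart from library or digestion time.

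The WAT library holds 5261 captured cells with a median of 26239 UMIs (unique molecular identifiers, counts of single RNA molecules) and the BAT library 7009 with a median of 26411. The study's cell labels were used for 3998 precursors, equally many per depot, with 57368210 UMIs in WAT and 57780702 in BAT. These cells fall into wAPC 1 to 4, wCAPs, wFAPLs and differentiating wFAPLs in WAT, and into bAPC 1 to 5, bCAPs and bFAPLs in BAT. CAPs are the committed precursors, in which Pparg, the master regulator of fat cell formation, stood at 92.5 CPM in WAT and 92.8 in BAT. FAPLs are the fibro-adipogenic progenitor-like cells, with Pparg at 9.48 and 17.0 CPM. CAPs made up 33.7% of the labelled precursors in WAT and 14.8% in BAT. Values over all precursors of a depot therefore mix level with cluster share, and the part of each was not tested. Glial, myeloid and endothelial marker lists summed to 9.31 to 22.5 CPM in WAT precursors and 8.53 to 17.1 in BAT precursors, against 8147 and 7464 for 7 fibroblast-like precursor markers. Libraries shared 9 cell barcodes, 3 of them among labelled precursors.

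Levels are given as counts per 1000000 (CPM): the UMIs of a gene, added up over the cells of a group, were divided by all UMIs of those cells. Each is followed by its exact 95% Poisson interval. Intervals cover counting error only. The clusters were drawn from the same counts, so levels by cluster are descriptions and not tests. Because 1 tag is counted per molecule at its 3' end, no length correction applies. Genes may still differ in capture, so the receptor balance is informative for its change between clusters rather than for its absolute value.

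Pdgfra (ENSMUSG00000029231, GRCm38 chromosome 5, 75152292 to 75198215, plus strand) encodes the alpha receptor. In WAT precursors it stood at 115 CPM (112 to 118), from 6612 UMIs, and in BAT precursors at 82.8 CPM (80.5 to 85.2), from 4784 UMIs. The log2 ratio of BAT over WAT was -0.48 (-0.53 to -0.42), so the brown library held less Pdgfra by more than its counting error.

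White clusters spread widely in Pdgfra. It was highest in wAPC 2 at 160.1 CPM (151 to 169), followed by wCAPs at 142 (136 to 147) and wAPC 3 at 116 (108 to 124). The wFAPLs, wAPC 4 and wAPC 1 followed at 82.7, 82.5 and 78.7 CPM, and these neighbours were not separated by their intervals. The 15 differentiating wFAPLs held 3 Pdgfra UMIs. Brown clusters were led by bCAPs at 112 CPM (105 to 119) and bAPC 5 at 103 (92.6 to 115), whose intervals overlapped. From bAPC 1 at 92.2 through bAPC 3 at 82.4 to bFAPLs at 78.5, each interval overlapped the next. Below them bAPC 2 at 62.1 CPM (57.7 to 66.7) and bAPC 4 at 42.7 (37.0 to 49.1) stood apart. Pdgfra thus varied 2.03-fold between the ends of the 6 larger white clusters and 2.62-fold across the 7 brown clusters.

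Pdgfrb (ENSMUSG00000024620, chromosome 18, 61045150 to 61085061, plus strand) encodes the beta receptor, the receptor by which pericytes and their relatives are commonly recognised. It was the most abundant member in both depots, at 153 CPM (150.1 to 156) in WAT and 147 (144 to 151) in BAT, from 8791 and 8521 UMIs. The log2 ratio of BAT over WAT was -0.06 (-0.10 to -0.01). The depots were therefore closer in Pdgfrb than in Pdgfra.

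One white cluster stood apart in Pdgfrb. The 62 cells of wAPC 4 reached 343 CPM (316 to 372), followed by the differentiating wFAPLs at 231 (190 to 278) and wFAPLs at 172 (163 to 182). Values in wCAPs, wAPC 3, wAPC 1 and wAPC 2 were 158, 152, 134 and 116 CPM. The cluster highest in Pdgfra, wAPC 2, was thus the lowest in Pdgfrb. In BAT only bFAPLs at 203 CPM (193 to 213) and bAPC 1 at 154 (148 to 160) were separated from the cluster below them. The bAPC 2, bAPC 3, bCAPs and bAPC 4 clusters lay between 126 and 136 CPM, and bAPC 5 was lowest at 107 (96.2 to 119). Relative to wAPC 1, the most numerous of the white APC clusters, wAPC 4 had a log2 ratio of 1.36 (1.22 to 1.49) for Pdgfrb and 0.07 (-0.20 to 0.32) for Pdgfra. The 8 mural (vessel wall) markers, mostly the smooth muscle actin gene Acta2, summed to 2731 CPM in wAPC 4 and 3725 in all WAT precursors. Such a sum says little about the other markers on the list.

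**Figure D1:**
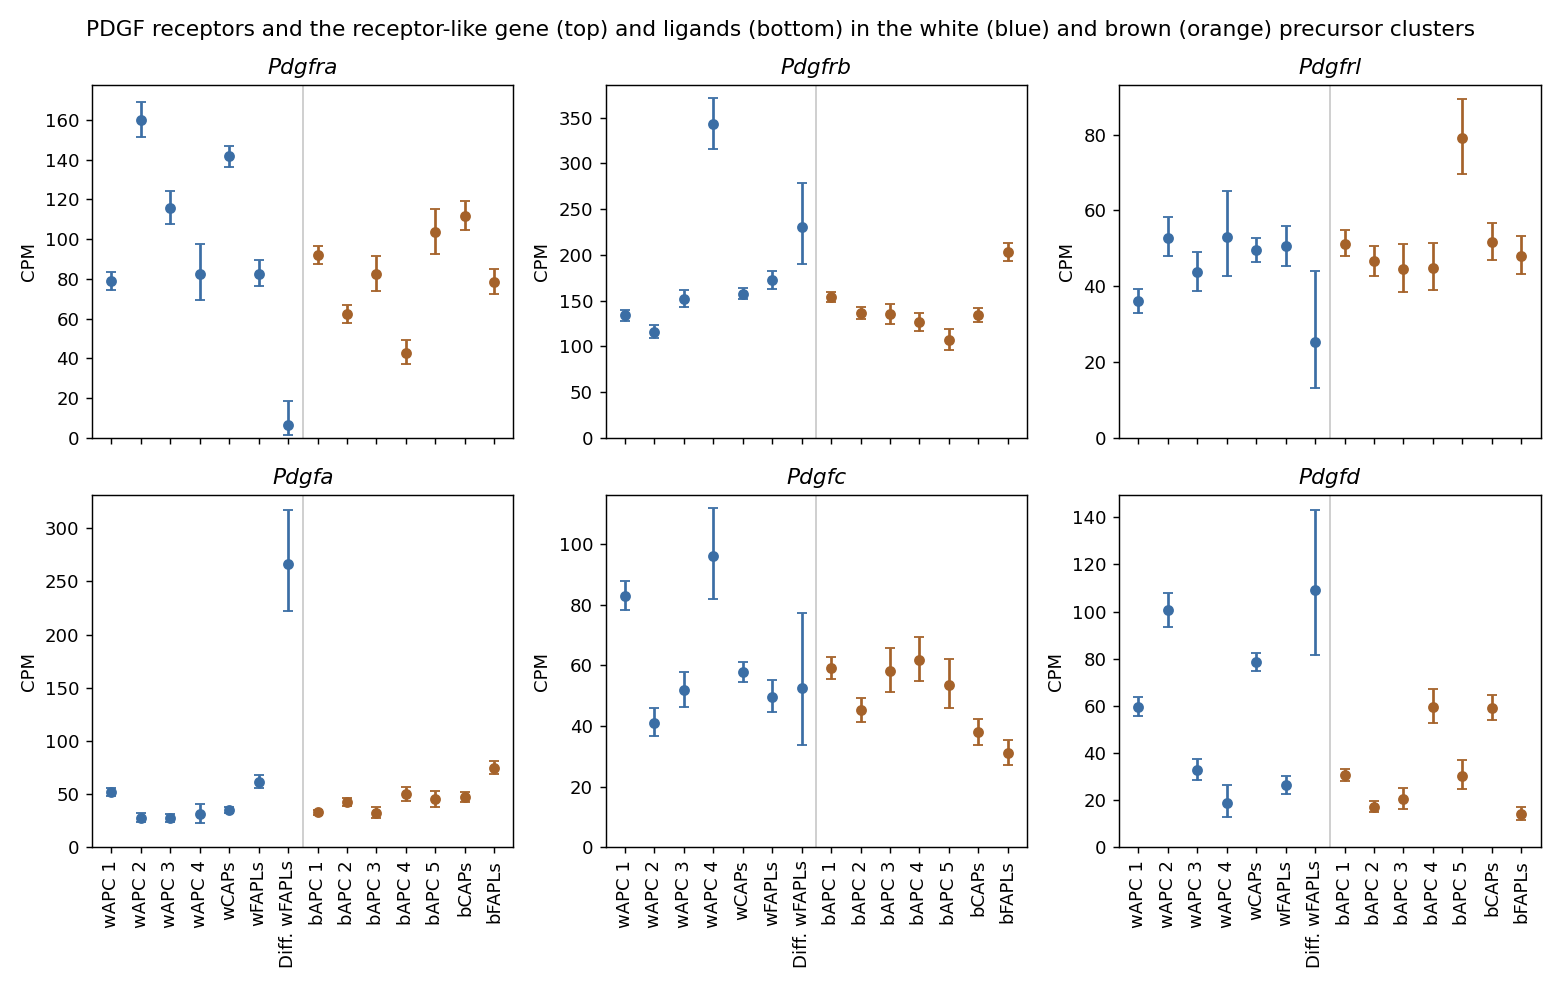
Level (CPM, linear axes starting at 0) of 6 PDGF genes in the 7 white (blue) and 7 brown (orange) precursor clusters, with exact 95% Poisson intervals for counting error. Pdgfrb peaks in wAPC 4 at 343 CPM, Pdgfra is highest in wAPC 2 and wCAPs, and Pdgfa reaches 266 CPM in the differentiating wFAPLs (Diff. wFAPLs).

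The balance was expressed as Pdgfra UMIs in percent of all Pdgfra and Pdgfrb UMIs, with an exact binomial interval. Pdgfra made up 42.9% (42.1 to 43.7) of receptor UMIs in WAT precursors and 36.0% (35.1 to 36.8) in BAT precursors. Among clusters the share ran from 58.0% in wAPC 2 down to 2.65% in the differentiating wFAPLs, and wAPC 2 was the only one of the 14 clusters with more Pdgfra than Pdgfrb UMIs, except that bAPC 5, at 49.1%, turned to 52.7% after thinning to 10000 UMIs and to 50.3% with cells under 40000 UMIs.

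In WAT all 7 clusters were separated from their neighbours in the order of this share. Below wAPC 2 (55.9 to 60.1) came wCAPs at 47.3% (46.0 to 48.6), wAPC 3 at 43.3% (41.0 to 45.7) and wAPC 1 at 37.1% (35.3 to 38.8). Lower still were the wFAPLs at 32.5% (30.3 to 34.7) and wAPC 4 at 19.4% (16.6 to 22.5). With cells in G1 only, wAPC 3 moved to 38.4%, inside the interval of wAPC 1 given above, and wAPC 1 stood at 37.7%. The separation of wAPC 3 from wAPC 1 was therefore not kept in G1 cells. In BAT the order ran from bAPC 5 at 49.1% (45.3 to 52.9) and bCAPs at 45.5% (43.3 to 47.7), which overlapped, to bAPC 4 at 25.3% (22.3 to 28.5). The clusters bAPC 3 and bAPC 1 stood at 37.9% and 37.5%, and bAPC 2 and bFAPLs at 31.3% and 27.9%. In both depots, CAPs were above the depot value and FAPLs below it. The intervals of wCAPs and bCAPs overlapped, while bFAPLs (26.0 to 29.9) lay below wFAPLs.

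**Figure D2:**
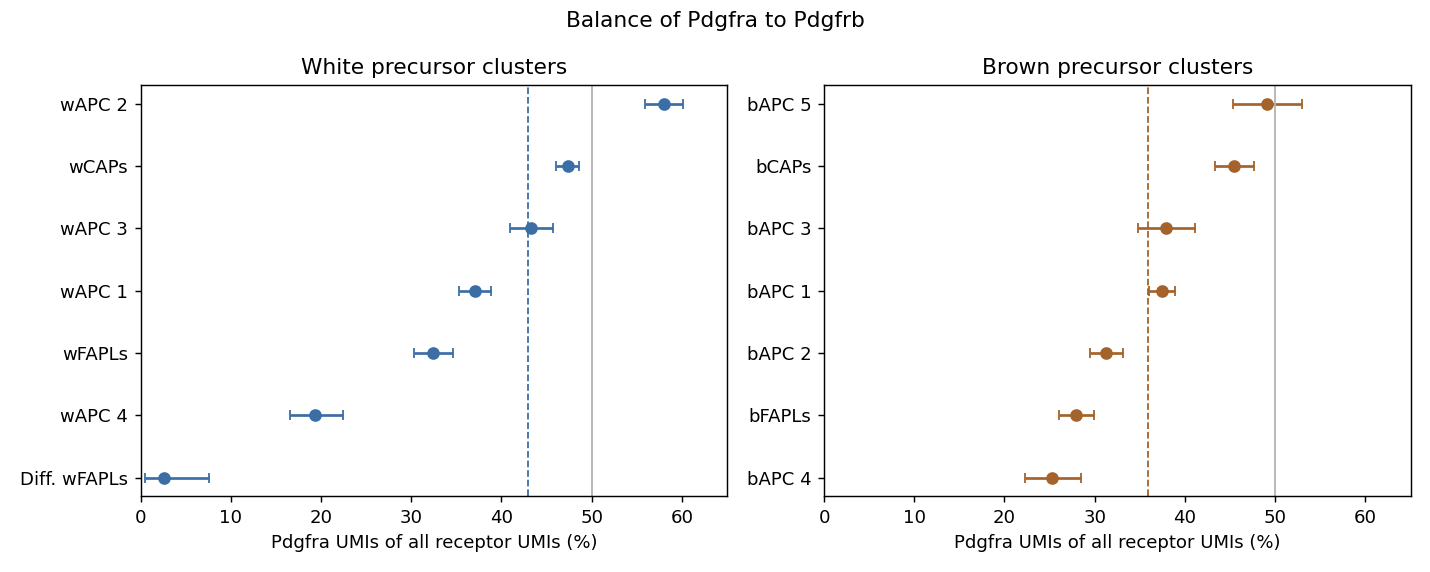
Pdgfra UMIs as a percentage of Pdgfra plus Pdgfrb UMIs in each white (left) and brown (right) cluster, with exact 95% binomial intervals for counting error. Dashed lines mark the value over all labelled precursors of the depot and the grey line equal numbers of both receptors. The interval of wAPC 2 lies above that line and the interval of bAPC 5 spans it, with its value at 49.1% here and at 52.7% after thinning.

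The differentiating wFAPLs had the most extreme balance, with 3 Pdgfra and 110 Pdgfrb UMIs. These 15 cells also differed from the wFAPLs in other markers. The committed precursor list (7 genes) summed to 1285 CPM, against 270 in wFAPLs and 803 in wCAPs, with UMIs of 4 of its genes in these 15 cells. Acta2, the smooth muscle actin gene, stood at 24519.5 CPM there against 4155 in wFAPLs, and Dcn, a fibroblast proteoglycan gene, at 52.4 against 961. The mural list as a whole (8 genes) summed to 27566 CPM against 4450, of which Acta2 was 24519.5 and 4155. All 8 mural genes had UMIs in both clusters, so the list differed in more than Acta2. The fibroblast-like precursor list (7 genes) summed to 4441 against 9881 CPM, with UMIs of 5 and 7 of its genes. The myogenic list (5 genes) summed to 149 against 7.39, and only 1 of its genes had any UMI in either cluster. The part of such cells in the receptor values was not tested.

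At the level of single cells, most precursors carried RNA of both receptors. Before thinning, 79.7% of WAT and 73.7% of BAT precursors had at least 1 UMI of each, while 19 WAT and 42 BAT cells had neither. The WAT value equals the product of the separate Pdgfra and Pdgfrb shares, 79.7%, and the BAT value lies next to its product of 73.3%. Detection depends on depth, so each cell was also thinned to 10000 UMIs, which left out no labelled cell. At that depth 43.3% of WAT precursors had both, 19.1% Pdgfra alone, 27.4% Pdgfrb alone and 10.3% neither. The corresponding shares in BAT were 36.7%, 14.4%, 33.5% and 15.5%. Free RNA in droplets can give such UMIs, and glial cells, which should lack the alpha receptor, serve as a background for Pdgfra only. They held 2 Pdgfra and 8 Pdgfrb UMIs in WAT and 0 and 21 in BAT. Whether their Pdgfrb UMIs came from free RNA was not tested, so they give no background for Pdgfrb. None of the 20 WAT and 22 BAT glial cells had a thinned Pdgfra UMI (limits of 15.0% and 13.6% from 3 counts), while 20.0% and 22.7% had a Pdgfrb UMI. Unthinned, 10.0% and 0% had Pdgfra and 25.0% and 40.9% Pdgfrb, at median depths of 22607 and 17174.5 UMIs against 27204 and 26900 in precursors.

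The cells resolved the balance further. Thinned cells with more Pdgfra than Pdgfrb UMIs made up 45.8% (39.6 to 52.0) of wAPC 2, 39.2% (35.5 to 43.0) of wCAPs and 34.8% (29.4 to 40.5) of bCAPs. In wFAPLs and bFAPLs they were 17.2% (12.8 to 22.4) and 16.1% (12.0 to 21.0), and in wAPC 4 only 6.45% (1.79 to 15.7). Both kinds of receptor UMI nonetheless occurred together in 44.9% of wFAPLs and 41.6% of bFAPLs, close to the 47.6% and 41.9% of wCAPs and bCAPs. At this depth the difference lay in cells with 1 receptor only. Pdgfra alone was found in 23.3% of wCAPs and 9.77% of wFAPLs and in 22.0% of bCAPs and 8.60% of bFAPLs, and Pdgfrb alone in 21.5% and 33.2% in WAT and in 24.3% and 37.3% in BAT. The lowest share with both, apart from the differentiating wFAPLs at 6.67% (1 of 15), was the 21.8% (15.3 to 29.5) of bAPC 4, where 45.8% of cells had Pdgfrb alone. Before thinning, Pdgfra was found in 91.5% of wCAPs and 75.0% of wFAPLs, and Pdgfrb in 92.4% and 94.5%. At full depth the share with both was therefore lower in wFAPLs than in wCAPs. Unthinned Pdgfra was found in 86.8% of bCAPs and 78.1% of bFAPLs, and Pdgfrb in 88.9% and 95.3%.

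**Figure D3:**
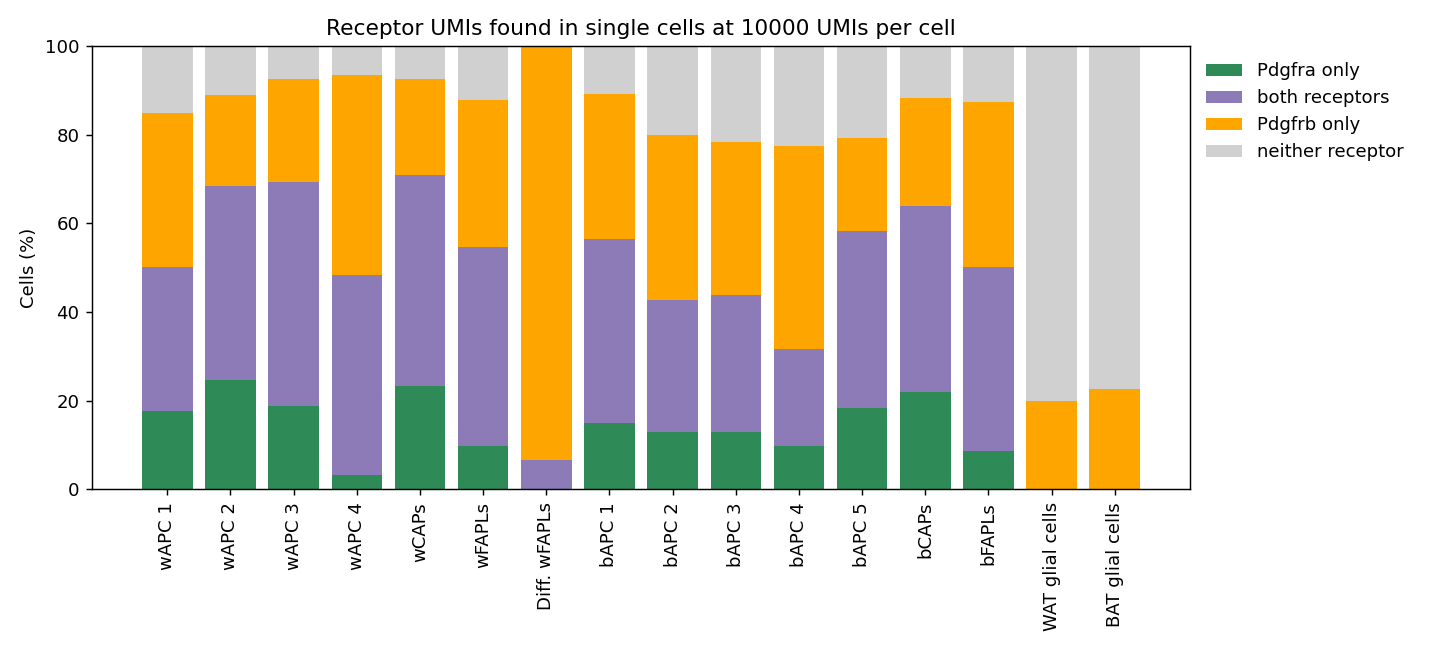
Percentage of cells with UMIs of Pdgfra only, both receptors, Pdgfrb only or neither, in each precursor cluster and in glial cells, after thinning every cell to 10000 UMIs. Both receptors are found in 21.8 to 50.4% of cells in all clusters but the differentiating wFAPLs, and no glial cell holds Pdgfra.

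Pdgfrl (ENSMUSG00000031595, chromosome 8, 40926212 to 40990785, plus strand) encodes a secreted protein that resembles the extracellular part of the receptors and has no kinase domain. It was the most even member across the larger clusters of each depot. It stood at 46.0 CPM (44.2 to 47.8) in WAT and 50.4 (48.6 to 52.3) in BAT, a log2 ratio of 0.13 (0.06 to 0.21). In WAT, the clusters ran from 36.1 CPM in wAPC 1 to 53.0 in wAPC 4, leaving aside the differentiating wFAPLs at 25.2 (13.0 to 44.0). In BAT, 6 of 7 clusters lay between 44.5 and 51.6 CPM with overlapping intervals, and only bAPC 5 stood apart at 79.0 (69.6 to 89.3). The same bAPC 5 cells had the lowest Pdgfrb of BAT. Pdgfrl had 0 UMIs in glial cells of both depots, which allows levels of up to 6.33 CPM in WAT and 6.63 in BAT.

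Among the ligands, Pdgfa (ENSMUSG00000025856, chromosome 5, 138976014 to 138997370, minus strand) encodes PDGF-A. It was nearly equal in WAT at 42.5 CPM (40.9 to 44.3) and BAT at 44.5 (42.8 to 46.2), with a log2 ratio of 0.06 (-0.02 to 0.15) that did not exceed counting error. This ratio was 0.154 with labels carried over to all filtered precursors and 0.153 after thinning, just above that interval. Within each depot FAPLs held the most Pdgfa of the larger clusters, at 61.9 CPM (56.3 to 68.0) in wFAPLs and 75.0 (68.9 to 81.4) in bFAPLs. The wAPC 1 cells at 51.8 were next in WAT, and wCAPs, wAPC 4, wAPC 2 and wAPC 3 lay between 27.4 and 35.0, each overlapping the next in order. In BAT, bAPC 4, bCAPs, bAPC 5 and bAPC 2 lay between 42.8 and 50.0, and bAPC 1 and bAPC 3 at 32.9 and 32.4. The differentiating wFAPLs reached 266 CPM (222 to 317). Set against wFAPLs this was a log2 difference of 2.10 (1.81 to 2.39). All 15 of these cells had a Pdgfa UMI.

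Pdgfc (ENSMUSG00000028019, chromosome 3, 81036416 to 81214040, plus strand), the gene of PDGF-C, stood at 61.2 CPM (59.2 to 63.2) in WAT and 49.4 (47.6 to 51.2) in BAT. The log2 ratio was -0.31 (-0.38 to -0.24). Its highest white levels were in wAPC 4 at 96.0 CPM (81.9 to 112) and wAPC 1 at 82.9 (78.3 to 87.7), and the other 5 white clusters lay between 41.1 and 57.7. In BAT the order ran from bAPC 4 at 61.8 to bFAPLs at 31.0 (27.2 to 35.3), each cluster overlapping the next. Unlike Pdgfa, Pdgfc was thus lowest of all brown clusters in bFAPLs, with bCAPs next at 37.9 CPM.

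Pdgfd (ENSMUSG00000032006, chromosome 9, 6168584 to 6378850, plus strand) encodes PDGF-D. Of the 6 members tested, its level differed most between depots and across the clusters other than the differentiating wFAPLs. WAT precursors held 63.6 CPM (61.5 to 65.7) and BAT precursors 31.3 (29.8 to 32.7), from 3648 and 1806 UMIs. White clusters ran from 18.9 CPM (12.9 to 26.6) in wAPC 4 to 100.5 (93.6 to 108) in wAPC 2, a 5.33-fold spread, with 109 (81.4 to 143) in the differentiating wFAPLs. Between them lay wCAPs at 78.6, wAPC 1 at 59.6, wAPC 3 at 32.9 and wFAPLs at 26.4. Brown clusters were led by a high pair, bAPC 4 at 59.7 CPM (52.9 to 67.1) and bCAPs at 59.0 (53.9 to 64.5), separated from the clusters below. Then came bAPC 1 at 30.7, bAPC 5 at 30.4 (24.6 to 37.0) and bAPC 3 at 20.5 (16.5 to 25.2). The lowest values were 17.2 in bAPC 2 and 14.1 (11.5 to 17.0) in bFAPLs. From bAPC 1 on, each interval overlapped the next. The 2 clusters with the lowest white and brown Pdgfd, wAPC 4 and bFAPLs, were also those with the highest Pdgfrb among the larger clusters of their depot.

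Pdgfb (ENSMUSG00000000489, chromosome 15, 79995874 to 80014977, minus strand), the gene of PDGF-B, was nearly absent from precursors. There were 9 UMIs in 4 WAT cells, 6 of them in 1 cell, and 7 UMIs in 7 BAT cells, for levels of 0.157 (0.07 to 0.30) and 0.121 CPM (0.05 to 0.25). Of the 4 WAT cells with Pdgfb, 2 had a UMI of the endothelial genes Pecam1 or Cdh5 and 0 had the glial gene Sox10. Of the 7 BAT cells, 0 had Pecam1 or Cdh5 and 1 had Sox10. Over all labelled precursors, Pecam1 or Cdh5 occurred in 75 WAT and 47 BAT cells, and Sox10 in 0 and 7.

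Taking the 4 ligands together as a mixture, PDGF ligand RNA summed to 167 CPM in WAT and 125 in BAT precursors. Pdgfd, Pdgfc and Pdgfa made up 38.0%, 36.5% and 25.4% of ligand UMIs in WAT and 25.0%, 39.4% and 35.5% in BAT. Pdgfd was 59.3% (56.6 to 61.9) of ligand UMIs in wAPC 2, Pdgfc 65.5% (59.2 to 71.4) in wAPC 4, and Pdgfa 62.4% (59.1 to 65.5) in bFAPLs. In wCAPs and bCAPs, Pdgfd was the leading ligand, at 45.8% (44.1 to 47.5) and 40.9% (38.1 to 43.8), whereas in wFAPLs and bFAPLs it made up 19.1% and 11.7%. Before thinning, 88.8% of WAT and 87.5% of BAT precursors had at least 1 UMI of a ligand and of a receptor, and at 10000 UMIs per cell these shares were 61.9% and 55.3%.

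Between depots, 1 of the 6 members tested (Pdgfb was below the minimum mean of 5 CPM) was at least 2-fold lower in BAT and 0 were at least 2-fold higher, beside 1.08% and 0.815% of the 10428 genes tested. That member was Pdgfd, at a log2 ratio of -1.02 (-1.11 to -0.94), and it lay so close to the 2-fold line that it passed it no longer with G1 cells only (-0.99), with cells under 40000 UMIs (-0.91) or after centring on the median gene (-0.98). The median of the 6 members was -0.18, against -0.04 over all genes tested. Compared within matched cell types, Pdgfd was lower in bFAPLs than in wFAPLs by a log2 ratio of -0.91 (-1.26 to -0.56) and in bCAPs than in wCAPs by -0.41 (-0.56 to -0.27). Pdgfc also kept its direction, at -0.68 (-0.92 to -0.44) in FAPLs and -0.61 (-0.79 to -0.42) in CAPs. Pdgfra did so in CAPs, at -0.34 (-0.45 to -0.23), while its ratio in FAPLs of -0.07 (-0.24 to 0.09) did not exceed counting error. Pdgfa, which did not exceed counting error between depots, was higher in BAT in both types, at 0.28 (0.09 to 0.46) in FAPLs and 0.43 (0.24 to 0.61) in CAPs. Pdgfrl lay within counting error in both, at -0.07 and 0.06. Pdgfrb pointed in opposite directions, at 0.24 (0.13 to 0.35) in FAPLs and -0.23 (-0.33 to -0.13) in CAPs.

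FAPLs were compared with CAPs within each library. In WAT, 1 of 6 members was at least 2-fold lower in wFAPLs and 0 higher, beside 1.64% lower and 2.25% higher of the 10494 genes tested. In BAT the counts were also 1 lower and 0 higher, beside 2.07% and 1.97% of 10483 genes. In both cases the member was Pdgfd, with log2 ratios of -1.58 (-1.80 to -1.36) in WAT and -2.07 (-2.39 to -1.76) in BAT, from 189 against 1524 and from 106 against 484 UMIs. Pdgfra was lower in FAPLs of both depots, at -0.78 (-0.91 to -0.65) and -0.51 (-0.66 to -0.36). Pdgfa was higher in both, at 0.82 (0.65 to 1.00) and 0.67 (0.48 to 0.86). Pdgfrb was higher by 0.60 (0.48 to 0.71) in bFAPLs, while in wFAPLs the ratio was 0.13 (0.03 to 0.22). Pdgfc was slightly lower in both, at -0.22 and -0.29, and Pdgfrl lay within counting error at 0.03 and -0.10. Pdgfb had 0 UMIs in wFAPLs and 6 in wCAPs, all in 1 of 674 cells, and 1 in each of bFAPLs and bCAPs. The member medians were -0.10 in WAT and -0.20 in BAT, against -0.01 and -0.04 over all genes tested.

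**Figure D4:**
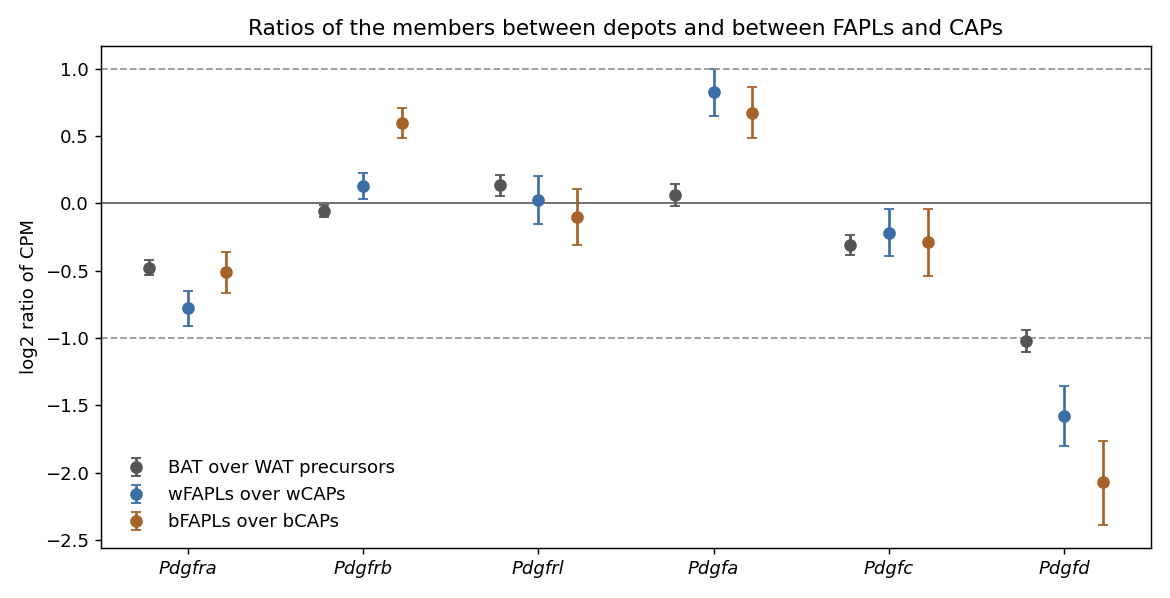
Log2 ratios of CPM for 6 members between depots (grey), between wFAPLs and wCAPs (blue) and between bFAPLs and bCAPs (orange), with exact conditional 95% intervals for counting error and dashed lines at 2-fold. Pdgfd lies at or below the lower line in all 3 comparisons, at -1.02, -1.58 and -2.07.

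Over all precursors, Pdgfra, Pdgfc and Pdgfd were lower in BAT than in WAT. Within each depot they were lower in FAPLs than in CAPs. Pdgfc differed least of these genes in those comparisons, but not between depots within matched cell types. The log2 ratio of bCAPs over wCAPs was -0.61 for Pdgfc, -0.41 for Pdgfd and -0.34 for Pdgfra. That of bFAPLs over wFAPLs was -0.68 for Pdgfc, -0.91 for Pdgfd and -0.07 for Pdgfra, the last within counting error. The promoters of Pdgfd and Pdgfra are shown because their differences were larger over all precursors and between FAPLs and CAPs. The stretches are the 250 bases before the RefSeq start on the plus strand of GRCm38.p6, at chr5:75152001-75152250 for Pdgfra and chr9:6168236-6168485 for Pdgfd, written 5' to 3', with matches to the TATA motif TATAAA or the GC box GGGCGG in capitals.
Pdgfra: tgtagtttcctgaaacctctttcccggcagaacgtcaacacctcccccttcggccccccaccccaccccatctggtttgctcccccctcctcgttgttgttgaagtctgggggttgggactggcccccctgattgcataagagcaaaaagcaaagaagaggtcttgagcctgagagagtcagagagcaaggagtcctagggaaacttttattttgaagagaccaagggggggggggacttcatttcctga
Pdgfd: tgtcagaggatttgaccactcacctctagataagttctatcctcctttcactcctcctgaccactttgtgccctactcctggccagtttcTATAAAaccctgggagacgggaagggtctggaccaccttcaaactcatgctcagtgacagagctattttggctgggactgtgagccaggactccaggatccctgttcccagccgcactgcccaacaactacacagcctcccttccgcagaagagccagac
The Pdgfd window held 1 TATAAA match, 160 to 155 bases before the start, and the Pdgfra window held neither motif on either strand. Over the 32851 promoter windows of the same length, 12.4% held TATAAA and 32.7% held GGGCGG on either strand, so a match is common and is given as a description only. The table had entries for 4 of the 7 members. The windows of Pdgfra and Pdgfd were 54.4% and 53.6% G and C, that of Pdgfc was 50.8%, and those before the 2 starts of Pdgfa were 66.4% and 72.4% and held GGGCGG matches.

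Lists of genes around the members were drawn up with earlier results of these data known. They covered ligand processing and binding (9 genes), signal transduction (30), receptor attenuation (12), serum and PDGF response (17) and related receptors and ligands (13). None of the 30 signal transduction genes, such as Grb2, Sos1 or Pik3ca, reached 2-fold in any of the 3 comparisons, and neither did any receptor attenuation gene tested. The widest signal transduction ratio was -0.87. These counts stand beside the shares of all genes tested that reached 2-fold, at 0.815% higher and 1.08% lower between depots, 2.25% and 1.64% between wFAPLs and wCAPs, and 1.97% and 2.07% between bFAPLs and bCAPs, so nothing is read from them. Between depots the 1 gene of these lists past 2-fold was Kitl, which encodes the ligand of the related receptor Kit, at 26.7 CPM in BAT and 101 in WAT (log2 ratio -1.93, -2.01 to -1.85). In the comparison of FAPLs with CAPs, Flt1, a VEGF receptor gene, was higher in FAPLs of both depots, at 83.8 against 19.1 CPM in WAT (2.13, 1.94 to 2.32) and 48.4 against 6.95 in BAT (2.80, 2.39 to 3.23). In BAT, Plat, which encodes tissue plasminogen activator, a protease that activates PDGF-C, was higher in bFAPLs at 27.5 against 12.1 CPM (1.19, 0.83 to 1.55). Has2, a hyaluronan synthase gene, was lower there at 22.8 against 66.6 CPM (-1.54, -1.80 to -1.29).

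Cells were also divided by cell cycle phase, called from the expression of S and G2/M genes in the same counts. Pdgfd was lowest in G2/M in both depots, at 42.3 CPM (38.7 to 46.1) against 70.0 (67.2 to 72.8) in G1 in WAT and 19.3 (16.9 to 22.1) against 35.2 (33.3 to 37.2) in BAT. Pdgfra was lowest in S phase of WAT, at 88.1 CPM (82.5 to 93.9) against 119 in G1 and 127 in G2/M. In BAT it was highest in G2/M, at 100.2 CPM (94.4 to 106) against 79.7 in G1 and 74.3 in S. Pdgfrb stayed between 147 and 159 CPM in WAT and between 140.2 and 150.5 in BAT. The Pdgfra share of receptor UMIs accordingly was lowest in S phase of WAT, at 37.4% (35.5 to 39.3), and reached 40.9% (39.1 to 42.7) in G2/M of BAT against 34.6% in both other phases. Median depth differed between phases, at 25529 UMIs in G1 and 32252 in S phase of WAT and 25313 and 32196.5 in G1 and G2/M of BAT. All clusters of a depot were pooled within each phase. The part of depth and of cluster in these values was not tested.

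Genes with the pattern most like each receptor were sought over the 13 clusters with at least 50 labelled cells, by Pearson correlation of log2(CPM + 1) among 6712 other genes with a mean of at least 20 CPM. The 13 points come from only 2 libraries, so the correlations describe these clusters. For Pdgfrb the 5 highest were Loxl1 (0.94), Zcchc14 (0.89), Adgre5 (0.86), Arl8b (0.85) and Pmepa1 (0.85), each with its maximum in wAPC 4. Loxl1, which encodes an enzyme that cross-links elastin, ranged from 144 CPM in wAPC 2 to 251 in wAPC 4. The 3 lowest were Fdps (-0.90), Hacd4 (-0.89) and Pcyt2 (-0.89), each lowest in wAPC 4. With values centred on the mean of each depot, 4 of the 5 highest remained among the 5 highest, and Pmepa1 fell to rank 18. Of the 3 lowest, 1 remained among the 3 lowest. Centring keeps wAPC 4 among the points, and the part of this cluster in the correlations was not tested. For Pdgfra the 5 highest were Osbpl1a, Ttc21b, 4833420G17Rik, Mir99ahg and Dzip1, all between 0.87 and 0.88, and the lowest were Cnn3 (-0.89), Arhgap1 (-0.89) and Arpc2 (-0.88). None of those 5 stayed among the 5 highest after centring, though all ranked between 7 and 13, and 1 of the 3 lowest stayed among the 3 lowest. The receptors themselves had a correlation of -0.11 with each other. Pdgfd had 0.42 with Pdgfra and -0.49 with Pdgfrb. The mural markers Acta2 and Cspg4 had -0.34 and 0.49 with Pdgfrb.

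Pdgfa and Pdgfb were higher in the glial cells of the cultures than in precursors. In the 20 WAT and 22 BAT glial cells, which carried Sox10 at 274 and 281 CPM, Pdgfa stood at 631 CPM (562 to 707) and 623 (552 to 700.2), 14.8-fold and 14.0-fold above the precursors of the same library. Every one of these cells had a Pdgfa UMI. Pdgfb stood at 116 CPM in WAT and 108 in BAT glial cells, and 75.0% and 72.7% of the cells had a UMI of it. Pdgfra was at 2 and 0 UMIs there and Pdgfd at 0 and 3, below the precursor levels in each case. With the glial label carried over to all filtered cells, the glial cells were 1.04% of WAT and 1.11% of BAT cells. They held 82.5% (75.7 to 88.0) and 60.1% (54.2 to 65.9) of the Pdgfb UMIs in filtered cells. Their share of Pdgfa UMIs was 12.5% and 10.8%. Myeloid cells, with Ptprc at 160 and 199 CPM, had Pdgfb at 12.9 CPM (14 cells) in WAT and 16.9 (27 cells) in BAT and held 6.25% and 18.5% of Pdgfb UMIs. Of the 281 Pdgfb UMIs in filtered BAT cells, glial, myeloid and myogenic cells held 169, 52 and 3. In WAT, glial and myeloid cells held 132 and 10 of 160. The rest lay in cells with a given or carried-over precursor label. Cells outside the filter, which got no carried-over label, held a further 93 Pdgfb UMIs in WAT and 80 in BAT. Pdgfc was at 98.0 CPM in WAT and 39.1 in BAT myeloid cells.

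**Figure D5:**
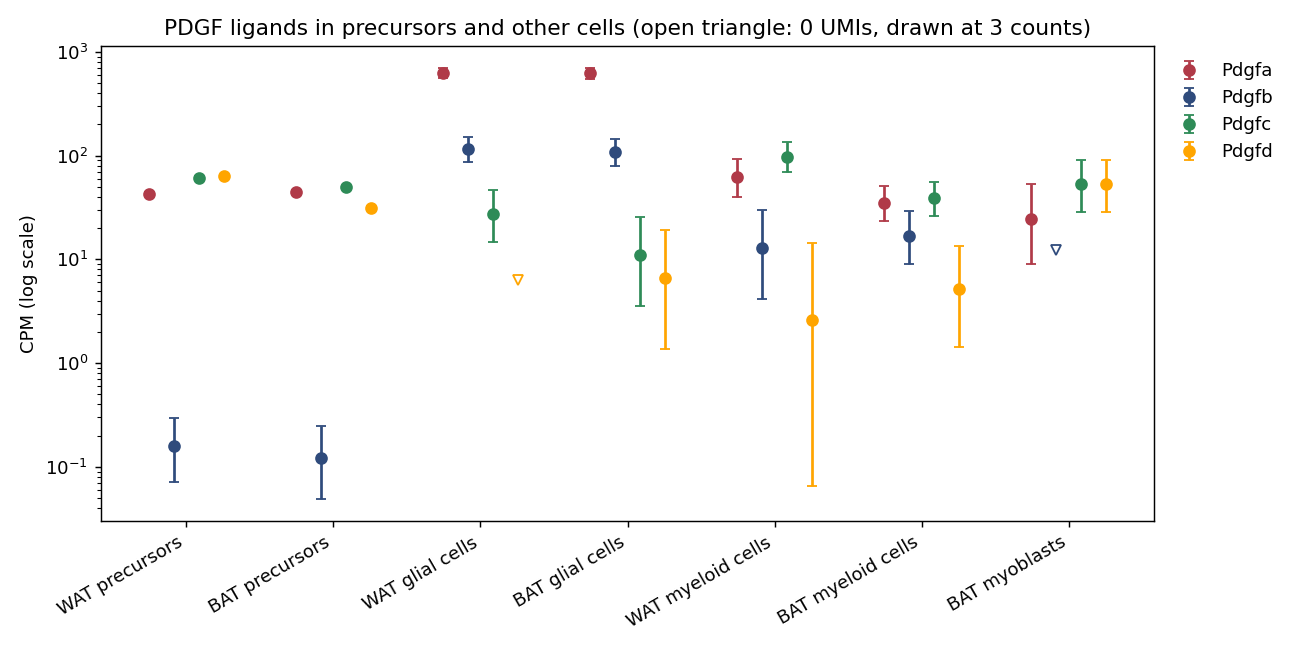
Level (CPM, log axis) of the 4 ligands in labelled precursors, glial cells, myeloid cells and myoblasts, with exact 95% Poisson intervals for counting error. Open triangles mark 0 UMIs and are drawn at the level of 3 counts. Pdgfa and Pdgfb are highest in glial cells, where Pdgfb stands at 116 and 108 CPM against 0.157 and 0.121 in precursors.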

How the data were processed

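The deposited matrices hold counts of UMIs per gene and cell, made by the authors with Cell Ranger 7.0.1 (10x Genomics 3' v3.1 chemistry) against mm10 with no normalization and with its cell calls. The study's limits were applied again: over 3900 and under 7700 genes (found in at least 3 cells), 1.7 to 5% mitochondrial UMIs and 6000 to 60000 UMIs, which kept 4407 WAT and 6137 BAT cells. The first count equals the study's and the second is slightly below it. Cluster labels came from the study's source data. The copy used is shortened to its first rows, which label 3998 precursors, equally many per depot, and some glial, myeloid and myogenic cells. Labels of other cells were not used here. No doublet caller was run, and the study states no removal of doublets.

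UMIs were summed per label and scaled to CPM in Python 3.11.15 with numpy 2.4.6, scipy 1.17.1 and pandas 2.3.3. Levels have exact Poisson, shares exact Clopper-Pearson and ratios exact conditional binomial 95% intervals. A count of 0 allows 3 counts. With 1 library per depot no p-value was computed. Genes with a mean of at least 5 CPM over both profiles entered each comparison, with 2-fold as the limit. Each cell was also thinned to 10000 UMIs with a fixed seed. Labels were carried to the other filtered cells by vote of 15 neighbours on 10 principal components of 2000 variable genes with scikit-learn 1.9.0. Held-out cells got their own label back in 88.6% of WAT and 83.3% of BAT cases. The number of components was chosen after these shares were seen. Cycle phases used scanpy 1.11.5 with the gene lists of Seurat 5.3.0. The ratios with their intervals and the correlations were tested on simulated data, and the intervals of levels and shares were not. The simulated counts for the ratios had counting error only, so spread between cells was not covered. Gene positions are from the GRCm38 annotation and promoters from RefSeq.

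The genes named are the 7 members, the genes of the pathway lists past 2-fold, and the 5 highest and 3 lowest correlates of each receptor, with marker genes as checks. Members and lists were chosen with earlier results of these data known. The alternatives were other labels, thinned cells, G1 cells, means over cells, shallower cells, centred ratios, no cell filter and a higher minimum level.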

Additional observations from a re-analysis of the deposited data

Results flagged for a closer look

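Members stood above their precursor level in cells that the comparisons left out, with no replicate and no test. In glial cells, Pdgfa was at 631 CPM in WAT and 623 in BAT, and Pdgfb at 116 and 108. In myeloid cells, Pdgfb was at 12.9 CPM in WAT and 16.9 in BAT, and Pdgfc at 98.0 in WAT. Cells outside the limits on genes, UMIs and mitochondrial share numbered 854 in WAT and 872 in BAT, with median depths of 9834 and 32007.5 UMIs. There Pdgfa was at 60.4 CPM in WAT and 59.9 in BAT, Pdgfb at 4.74 and 2.55, and Pdgfd at 73.1 in WAT. In these cells, glial markers summed to 55.1 CPM in WAT and 43.5 in BAT, against 22.5 and 17.1 in precursors, and myeloid markers to 91.7 and 121 against 9.31 and 10.3. Their part in the levels of Pdgfa and Pdgfb was not tested.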

How the results depend on the processing

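No paired analysis was possible because each depot is 1 library. No member ratio that exceeded counting error changed sign under an alternative. Ratios within counting error that did were those of Pdgfrl between FAPLs and CAPs (-0.17 to 0.08 in WAT and -0.26 to 0.03 in BAT) and of Pdgfb between depots (-2.81 to 1.20) and between bFAPLs and bCAPs (-0.11 to 1.09). Of the alternative member ratios, 115 stayed within the counting interval of the reported value and 11 moved beyond it. Thinning moved the Pdgfra share of receptor UMIs from 42.9% to 44.1% in WAT and from 36.0% to 37.4% in BAT, and cells in G1 only moved it to 43.8% and 34.6%. The count of members at least 2-fold lower in BAT went from 1 to 0 with G1 cells, with cells under 40000 UMIs and after centring, each time because Pdgfd crossed the 2-fold line. With a minimum mean of 10 CPM, which tests fewer genes, the genes at least 2-fold apart between depots numbered 50 higher and 73 lower (85 and 113 at 5 CPM). Between wFAPLs and wCAPs they were 156 and 111 (236 and 172), and 124 were higher in bFAPLs (206). Pdgfd kept its direction in all comparisons, with log2 ratios from -1.04 to -0.91 between depots, -1.76 to -1.53 in WAT and -2.34 to -2.03 in BAT. Of the alternative cluster balances, 65 stayed within the interval and 5 moved beyond it. Those 5 were wAPC 3 (38.4%) and bAPC 2 (28.1%) in G1 cells, wCAPs (49.3%) and bAPC 1 (39.7%) after thinning, and wAPC 4 with labels carried over. In G1 cells bFAPLs stood at 28.6%, above bAPC 2. The share in bAPC 5 stayed within its interval but passed from 49.1% to 52.7% with thinned cells and to 50.3% with cells under 40000 UMIs. With labels carried over, wAPC 4 stood at 16.1%, and only 53.2% of its held-out cells got their label back. This return was also low for bAPC 5, at 58.3%, and for bAPC 3, at 64.9%. Low counts limit Pdgfb in precursors (9 and 7 UMIs), and the small number of cells limits every value of the 15 differentiating wFAPLs.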
